A study of Mus musculus with 19 samples.

Results

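The D-cyclin genes Ccnd1, Ccnd2 and Ccnd3, their kinase partners Cdk4 and Cdk6 and the inhibitor Cdkn1b were followed across 4 genotypes of old mouse prefrontal cortex. The members were taken by gene symbol from the platform's probe table. Of the 6 genes, 5 had a probe there, 11 probes in all out of 25697 on the array, and Cdk4 was not analysed here. Of the 11 probes, 7 were detected on at least 4 arrays and 4 were detected on 0 arrays. The genes Ccnd1, Ccnd2, Ccnd3 and Cdkn1b, 4 of the 6, entered the tests among 11072 genes. Ccnd2 had been chosen by its low intensity in 3xTgAD/Polb+/- against wild type, so its differences that use those arrays or the wild type arrays are given as description, without a test. The other members were included as its family and partners.

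D-type cyclins are the regulatory subunits that activate the kinases CDK4 and CDK6 in the G1 phase of the cell cycle. The active kinases phosphorylate the retinoblastoma protein, which releases E2F factors and allows entry into S phase. p27, the product of Cdkn1b, binds cyclin and kinase complexes and restrains CDK2, and it is abundant in cells that have left the cycle, such as neurons. In brain, cyclin D2 is known for its part in the division of neural progenitors, including those that give rise to new neurons in the adult hippocampus.

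Total RNA of prefrontal cortex was hybridised to 19 Illumina bead arrays, 1 sample on each. The groups were 3xTgAD/Polb+/- (n = 4), 3xTgAD with both Polb copies (n = 6), Polb+/- (n = 4) and wild type (n = 5). All mice were labelled female, strain C57BL/6, and were killed at 20 months of age. 3xTgAD mice carry the APPswe, PS1M146V and tauP301L alleles, a model of Alzheimer disease. As background, the APP and tau transgenes of this line are driven by the Thy1 promoter, which is active in neurons, and the presenilin mutation is a knock-in. Polb codes for a polymerase that fills short gaps during base excision repair. Polb+/- mice have 1 intact copy in every cell, and the cross carries all of these changes. The comparison asks how a reduced dose of this repair enzyme alters expression in the Alzheimer model and alone.

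Between 13205 and 14396 probes were detected per array, with median intensities of 67.7 to 109.1. Polb itself lay at 6.53 to 7.21 on the log2 scale in 3xTgAD/Polb+/- (n = 4), 6.63 to 7.79 in 3xTgAD (n = 6), 6.95 to 7.26 in Polb+/- (n = 4) and 7.55 to 7.97 in wild type (n = 5). All arrays of both Polb+/- genotypes lay below all wild type arrays, and 3xTgAD replicates 4 and 6 were as low, at 6.89 and 6.63. In the cross its level stood -0.74 ± 0.202 apart from wild type (SE; adjusted p = 0.185 by limma). Markers of cortical excitatory neurons were detected (6 of 8 listed genes tested, list means of 9.69 to 10.16 per array). The labels wrote the age as "20- month" on 11 arrays and "20 month" on 8, both spellings in every genotype, and 3628 of 11072 genes differed between them. The column headings of 3xTgAD replicates 2 and 5 carry the same code. Once spelling means were removed, this pair, which differs in spelling, had a correlation of 0.25 across genes. The 14 other 3xTgAD pairs lay at -0.626 to 0.133. Removing the means pushes pairs that share a spelling below 0, so only the upper end of that range is a comparison. The n = 6 counts arrays and may not count mice. Nothing else says that the samples came from separate mice, so the p-values measure the spread between arrays. All values are log2 intensity after background correction and quantile normalisation unless another unit is given, and levels are compared within a probe, not between probes.

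Ccnd2, which encodes cyclin D2, was measured by the single probe ILMN_2700166, detected on 19 of 19 arrays. The log2 intensities were 8.77, 9.01, 9.00 and 9.11 in 3xTgAD/Polb+/-. They were 9.76, 9.35, 9.45, 9.43, 9.45 and 9.27 in 3xTgAD, with a median of 9.44. They were 9.37, 9.20, 9.23 and 9.45 in Polb+/-. They were 9.65, 9.69, 9.78, 9.70 and 9.76 in wild type. Every 3xTgAD/Polb+/- array lay below every array of the other 3 genotypes, and every Polb+/- array lay below every wild type array. Of all genes, 1.22% were lower on every array of the cross than on any wild type array, 0.379% than on any 3xTgAD array and 2.76% than on any Polb+/- array, and 0.804% were lower on every Polb+/- array than on any wild type array; nothing is read from these shares, since Ccnd2 was chosen on them. Of the 6 3xTgAD arrays, 5 also lay below wild type, while replicate 1 fell within the wild type range. The means were 8.97 ± 0.145 in 3xTgAD/Polb+/- (SD, n = 4), 9.45 ± 0.167 in 3xTgAD (SD, n = 6), 9.32 ± 0.116 in Polb+/- (SD, n = 4) and 9.72 ± 0.0545 in wild type (SD, n = 5). The order from low to high was thus the cross, Polb+/-, 3xTgAD and wild type, with the middle 2 overlapping.

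The difference of Ccnd2 between 3xTgAD/Polb+/- and wild type was -0.74 ± 0.104 (SE, limma), a 1.67-fold lower intensity in the cross. Against 3xTgAD the cross differed by -0.48 ± 0.0999 and against Polb+/- by -0.34 ± 0.109. The single changes stood nearer to wild type, at -0.26 ± 0.0937 for 3xTgAD and -0.40 ± 0.104 for Polb+/-. These comparisons share arrays with the one that chose the gene, or with each other, and are values, not tests. The interaction, the part of the cross's difference beyond the sum of both single differences, was -0.08 ± 0.144. It uses the same arrays, so it is also a value and not a test. The tested comparison was 3xTgAD against Polb+/-, which uses neither the cross nor the wild type arrays. The difference was 0.14 ± 0.0999 (95% interval -0.07 to 0.35, limma adjusted p = 0.656), and the groups overlapped. In the scanner's intensity before normalisation, Ccnd2 ranged over 414.5 to 682.8 in 3xTgAD/Polb+/-, 421.1 to 804.4 in 3xTgAD, 660.3 to 809.5 in Polb+/- and 630.4 to 1537.8 in wild type, so on that scale the groups overlapped.

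**Figure D1:**
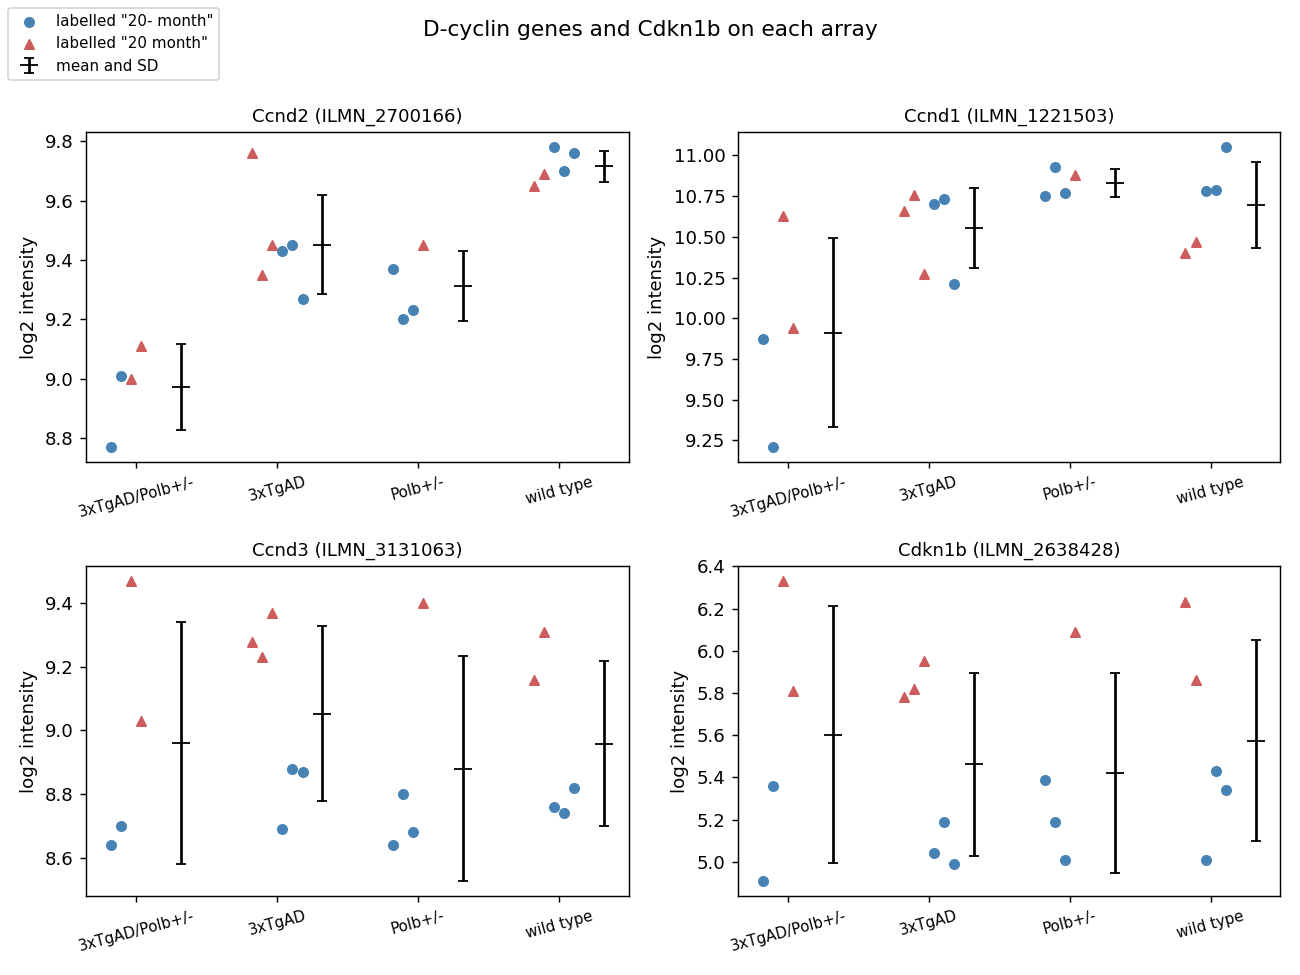
Log2 intensity of Ccnd2, Ccnd1, Ccnd3 and Cdkn1b on each of 19 arrays by genotype, with the spelling of the age in the label as the symbol and the mean and SD of each genotype in black. The 3xTgAD/Polb+/- arrays sit lowest for Ccnd2, while Ccnd3 and Cdkn1b split by spelling.

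**Figure D2:**
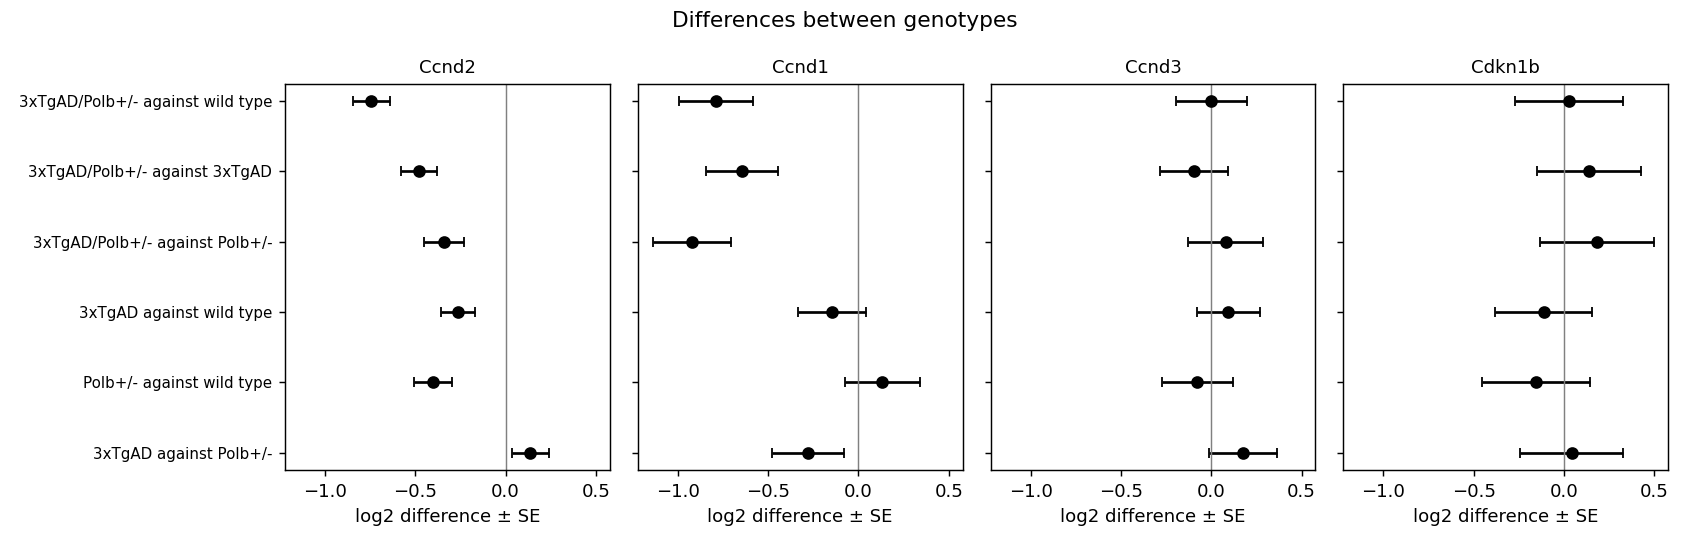
Log2 differences of the 4 tested genes in 6 comparisons of genotypes, with bars of 1 SE. Ccnd2 and Ccnd1 lie left of 0 in the 3 comparisons of 3xTgAD/Polb+/-, and Ccnd3 and Cdkn1b lie near 0 in all 6.

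Within the "20- month" arrays the Ccnd2 difference of 3xTgAD/Polb+/- from wild type was -0.86, and within the "20 month" arrays it was -0.61. A fit with a block for spelling gave -0.75. The marker lists, each a mean over genes per array, included striatal projection neurons, at 7.83 to 8.88 in 3xTgAD/Polb+/-, 9.97 to 10.77 in Polb+/- and 7.65 to 10.31 in wild type, from 6 tested genes of 10. The difference of Ccnd2 between Polb+/- and wild type was -0.36 with this list as a covariate and -0.40 without. Between 3xTgAD/Polb+/- and wild type it was -0.76 with it. In 3xTgAD against Polb+/-, the tested comparison of Ccnd2, all 6 striatal genes were lower, with a median difference of -1.892. All 6 were past an unadjusted p of 0.05 (limma), where 10.7% of all genes were. The Ccnd2 difference there was 0.07 to 0.19 over its alternatives, this covariate among them. The progenitor and neuroblast list, which includes Dcx and Sox2, averaged 7.43 ± 0.335 in 3xTgAD/Polb+/- (SD, n = 4) and 7.34 ± 0.149 in wild type (SD, n = 5). Of its 9 listed genes 5 were tested and 0 passed between these groups, where 0.0181% of all genes were called. At an unadjusted p under 0.05 (limma) 1 was higher and 1 lower in the cross, where 13.2% of all genes were past it. Eomes and Igfbpl1 of that list were detected on 0 arrays. In bulk tissue fewer cells of a type and less RNA per cell cannot be told apart.

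Ccnd1, which encodes cyclin D1, had 3 probes, all detected on 19 of 19 arrays. The brightest, ILMN_1221503, gave 9.87, 9.21, 10.63 and 9.94 in 3xTgAD/Polb+/-. It gave 10.66, 10.76, 10.27, 10.70, 10.73 and 10.21 in 3xTgAD, 10.75, 10.93, 10.77 and 10.88 in Polb+/-, and 10.40, 10.47, 10.78, 10.79 and 11.05 in wild type. Of the 4 cross arrays, 3 lay below every array of the other genotypes, and replicate 3 lay among them. The difference of 3xTgAD/Polb+/- was -0.79 ± 0.206 from wild type (adjusted p = 0.154), -0.64 ± 0.198 from 3xTgAD (adjusted p = 0.47) and -0.92 ± 0.217 from Polb+/- (adjusted p = 0.098), and none passed limma's threshold of 0.05. Against Polb+/- all cross arrays were lower, which held for 2.76% of the 11072 genes. With the striatal list as a covariate the difference of the cross from Polb+/- was -1.03 (limma adjusted p = 0.445). The differences of the single genotypes from wild type did not pass either, at -0.15 ± 0.186 for 3xTgAD (adjusted p = 0.953) and 0.13 ± 0.206 for Polb+/- (adjusted p = 1).

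The comparisons with wild type and Polb+/- turned on 3xTgAD/Polb+/- replicate 3. Without it, Ccnd1 differed by -1.03 from wild type (adjusted p = 0.0293), in a fit that called 2.93% of genes, and by -1.16 from Polb+/- (adjusted p = 0.0145), where 2.36% of genes were called. Against 3xTgAD the lowest adjusted p with 1 array left out was 0.149, so that comparison did not pass with any array left out. Without replicate 2, the lowest, the difference from wild type was -0.55 (adjusted p = 0.452). Within the "20- month" arrays, where the cross had only replicates 1 and 2, it was -1.34 (limma adjusted p = 0.00161), and 14.1% of genes were called. Within the "20 month" arrays, where the cross had only replicates 3 and 4, the difference was -0.15. Replicate 3, the cross array highest for Ccnd1, was also the highest of the 4 for blood and choroid plexus genes and the lowest of all 19 arrays for oligodendrocyte genes. The oligodendrocyte mean was 11.50, 11.15, 10.52 and 11.01 in 3xTgAD/Polb+/- replicates 1 to 4, against 10.79 to 11.59 in wild type. In 3xTgAD/Polb+/- replicates 1 to 4 the mean of the blood genes Hba-a1 and Alas2 was 9.92, 8.97, 11.84 and 11.01, against 10.71 to 11.41 in wild type. The mean of 4 choroid plexus genes, among them Ttr and Clic6, was 5.14, 5.54, 6.57 and 5.38 in the cross and 4.82 to 6.26 in wild type. The others in that mean, besides Ttr and Clic6, were detected on at most 4 and 8 of 19 arrays by any probe. In the cross against wild type 1 of the 4 was higher and 3 lower. The choroid plexus genes Folr1 and Otx2 were detected on 0 arrays. Over the 19 arrays the Pearson r with Ccnd1 was 0.685 for the blood mean, 0.607 for the choroid plexus mean and -0.0458 for the oligodendrocyte mean. The part of these genes in the result was not tested.

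The second probe, ILMN_2601471, followed the first (Pearson r 0.982 over 19 arrays), with 9.57, 8.74, 10.42 and 9.48 in 3xTgAD/Polb+/- and 10.14, 10.37, 10.50, 10.54 and 10.82 in wild type. Its difference was -0.92 ± 0.215 (adjusted p = 0.13 over all kept probes, of which 0.00669% were called). The third, ILMN_2669793, gave 8.46, 7.75, 8.08 and 7.75 in the cross and 7.92 to 8.38 on the 5 wild type arrays, with a difference of -0.11 ± 0.188 (adjusted p = 0.841). It did not follow the first probe (r 0.101), so the 3 probes disagree. The third probe was the dimmest, at 7.53 to 8.50 over all arrays, against 9.21 to 11.05 for the first.

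**Figure D3:**
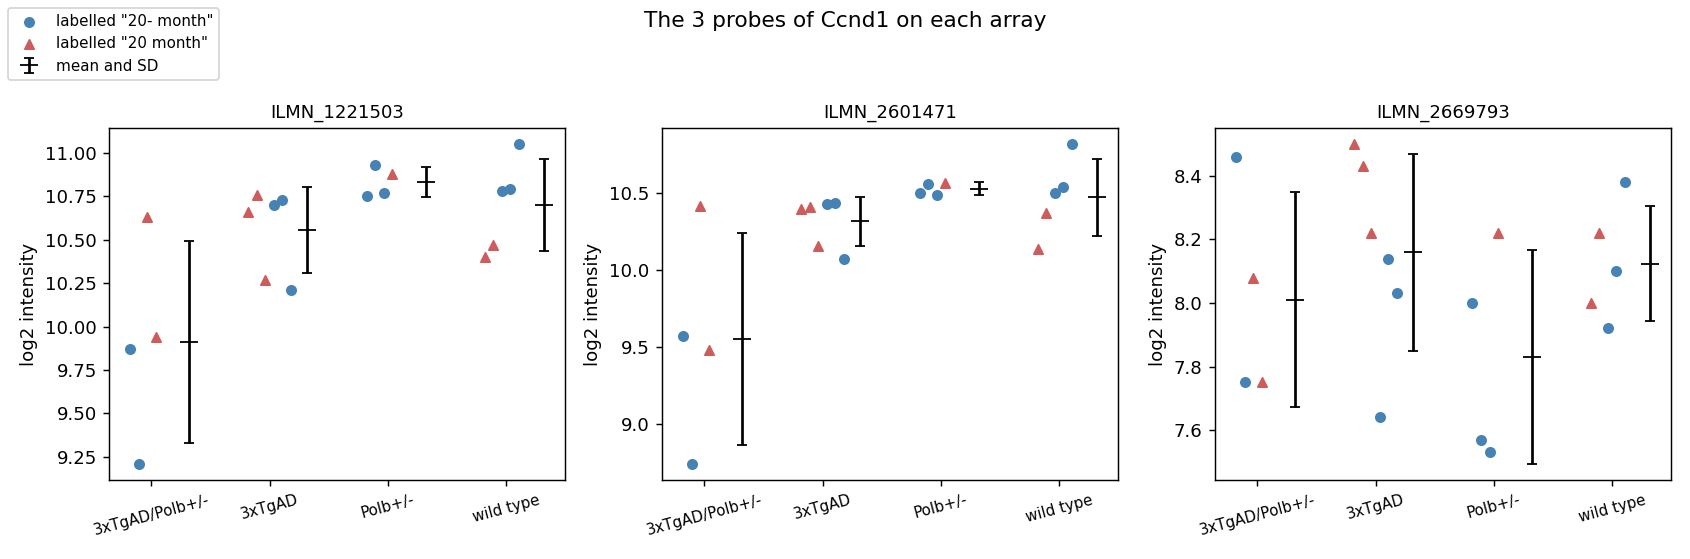
Log2 intensity of the 3 Ccnd1 probes on each array by genotype, with the mean and SD in black and the symbol giving the spelling of the age. ILMN_1221503 and ILMN_2601471 share the low 3xTgAD/Polb+/- arrays, and ILMN_2669793 does not.

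Ccnd3, which encodes cyclin D3, had 3 probes, of which ILMN_2661849 was detected on 0 of 19 arrays. ILMN_3131063 gave 8.64, 8.70, 9.47 and 9.03 in 3xTgAD/Polb+/- and 9.16, 9.31, 8.76, 8.74 and 8.82 in wild type. Its difference was 0.00 ± 0.197 (95% interval -0.41 to 0.41, limma adjusted p = 0.998). The dimmer ILMN_1246473, detected on 18 of 19 arrays, gave 5.82, 5.85, 6.64 and 5.68 in 3xTgAD/Polb+/- and 6.30, 6.11, 5.09, 5.39 and 5.73 in wild type, and the groups overlapped. Its difference was 0.27 ± 0.253 (95% interval -0.26 to 0.80, adjusted p = 0.692 over all kept probes). Cdkn1b was measured by ILMN_2638428, detected on 13 of 19 arrays, while its other 2 probes were detected on 0. It gave 4.91, 5.36, 6.33 and 5.81 in 3xTgAD/Polb+/- and 6.23, 5.86, 5.01, 5.43 and 5.34 in wild type, a difference of 0.03 ± 0.298 (95% interval -0.60 to 0.65, adjusted p = 0.98). The single Cdk6 probe, ILMN_1259714, was detected on 0 of 19 arrays, so no level of this kinase partner could be compared. Of Ccnd1, Ccnd3 and Cdkn1b, 0 of 3 passed in any of the 7 comparisons, against 0.0181% of all genes called in 3xTgAD/Polb+/- against wild type and 0.0903% against Polb+/-. The share was 0% in the cross against 3xTgAD, in Polb+/- against wild type and in the interaction, 0.00903% in 3xTgAD against wild type and 0.37% in 3xTgAD against Polb+/-. At an unadjusted p under 0.05, 1 of the 3, Ccnd1, was past the line in each of the 3 comparisons of the cross, where 13.2%, 8.82% and 12.1% of all genes were. It was also past it in the interaction, at -0.78 ± 0.286 (limma adjusted p = 1), where 3.22% of all genes were.

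Ccnd3 and Cdkn1b differed between the spellings of the age. Ccnd3 averaged 8.75 on the 11 "20- month" arrays (8.64 to 8.88) and 9.28 on the 8 "20 month" arrays (9.03 to 9.47), a difference of -0.53 ± 0.0664 (limma with genotype in the fit, adjusted p = 2.37e-05). Cdkn1b averaged 5.17 (4.91 to 5.43) and 5.98 (5.78 to 6.33), a difference of -0.83 ± 0.0919 (adjusted p = 7.37e-06). On the dimmer Ccnd3 probe ILMN_1246473 the spellings overlapped, at 5.09 to 5.85 on "20- month" and 5.68 to 6.64 on "20 month" arrays. Cdkn1b was detected on 5 of the 11 "20- month" arrays and on 8 of 8 "20 month" arrays. Ccnd1 did not pass, at -0.07 ± 0.146 (adjusted p = 0.758). Ccnd2 differed by -0.09 ± 0.0682, a value and not a test, since this fit includes the arrays on which it was chosen. The share of all genes called was 32.8%, and 15.3% were lower on the "20- month" arrays. Ccnd3 and Cdkn1b were among them. What the spelling stands for is not stated.

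**Figure D4:**
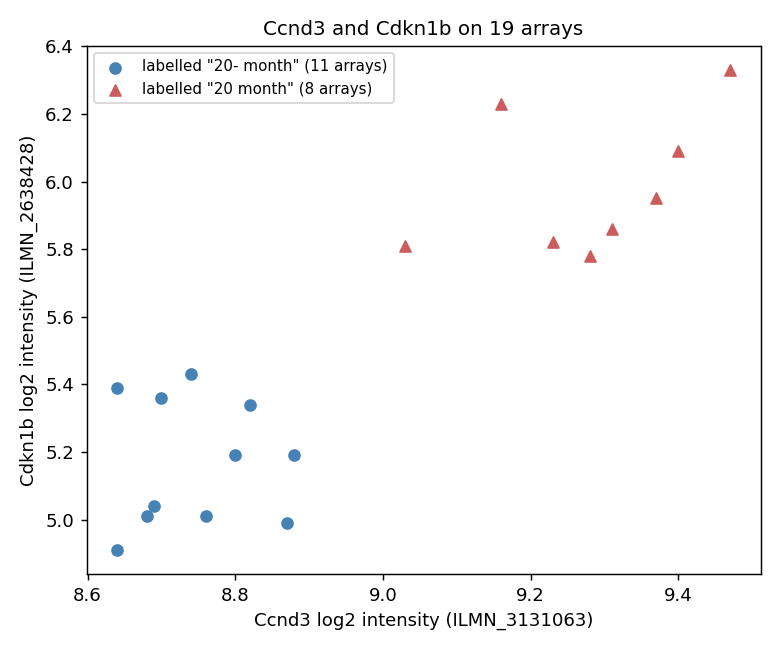
Cdkn1b against Ccnd3 log2 intensity on 19 arrays, with the spelling of the age in the label as symbol and colour. The "20- month" arrays lie lower on both axes.

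The promoter sequences of the genes that split together are shown with the motifs a search found in capitals. RefSeq (GRCm38.p6) promoters of 250 bases before to 50 after the start were given for 4 of the 6 members, 5 sequences in all, and Ccnd1 and Ccnd2 had none. The motifs searched on both strands were CCAAT, bound by NF-Y, GGGCGG, bound by Sp1, CACGTG, the E-box bound by MYC and USF factors, and TGTTTAC, bound by forkhead factors. No 2 of these matches overlap in the sequences shown. The sequences run 5' to 3' on the plus strand, at chr6:134920151-134920450 for Cdkn1b and chr17:47504801-47505100 and chr17:47593217-47593516 for the 2 starts of Ccnd3.
Cdkn1b: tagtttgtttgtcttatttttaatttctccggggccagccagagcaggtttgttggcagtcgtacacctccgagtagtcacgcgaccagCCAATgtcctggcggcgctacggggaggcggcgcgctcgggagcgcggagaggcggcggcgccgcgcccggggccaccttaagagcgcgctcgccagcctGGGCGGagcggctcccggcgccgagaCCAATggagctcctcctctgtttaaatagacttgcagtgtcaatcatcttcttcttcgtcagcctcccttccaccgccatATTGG
Ccnd3, first start: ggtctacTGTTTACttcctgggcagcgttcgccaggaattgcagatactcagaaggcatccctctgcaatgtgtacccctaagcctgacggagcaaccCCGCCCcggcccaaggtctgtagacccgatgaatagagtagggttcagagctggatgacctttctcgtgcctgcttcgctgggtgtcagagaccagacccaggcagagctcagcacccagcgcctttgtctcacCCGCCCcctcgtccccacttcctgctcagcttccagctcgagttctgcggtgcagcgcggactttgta
Ccnd3, second start: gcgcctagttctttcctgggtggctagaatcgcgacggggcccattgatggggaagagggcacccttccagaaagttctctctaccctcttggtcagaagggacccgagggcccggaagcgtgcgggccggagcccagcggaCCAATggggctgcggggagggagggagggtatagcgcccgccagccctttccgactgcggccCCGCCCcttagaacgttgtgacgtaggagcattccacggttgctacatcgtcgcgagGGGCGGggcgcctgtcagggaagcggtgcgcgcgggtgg
The Cdkn1b promoter had 3 matches to CCAAT and 1 to GGGCGG, counting the complements. The first Ccnd3 promoter had 2 matches to GGGCGG, both as the complement, and 1 to TGTTTAC, and the second had 1 to CCAAT and 2 to GGGCGG. Of 32851 promoters in the table, 37.4% held CCAAT, 35.7% GGGCGG, 7.15% CACGTG and 3.65% TGTTTAC. A match describes the letters and not a bound site.

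The wider G1/S pathway showed no gene past the threshold in any of the 7 comparisons (0 of 34 tested of 55 listed; limma). Of all genes, 0% to 0.37% were called in these comparisons, so 0 of 34 says little about the pathway. In 3xTgAD/Polb+/- against wild type 22 were higher and 12 lower, with a median difference of 0.049, against 0.020 over all genes. At an unadjusted p under 0.05, 2 of 34 were past it, where 13.2% of all genes were. Among the E2F factors, Tfdp1, the DNA-binding partner of E2F, differed by 0.36 ± 0.118 (adjusted p = 0.243), and E2f4, a repressive E2F, by -0.45 ± 0.181 (adjusted p = 0.296). Of the retinoblastoma family, Rb1 differed by 0.42 ± 0.182 between 3xTgAD/Polb+/- and 3xTgAD (adjusted p = 0.527). Mcm6, a subunit of the replicative helicase, differed by 1.13 ± 0.278 between 3xTgAD/Polb+/- and Polb+/- (adjusted p = 0.11). Foxo1, a forkhead factor, differed by -0.50 ± 0.228 in that comparison (adjusted p = 0.382). Among the inhibitors, Cdkn2c, which encodes p18, differed by 0.35 ± 0.153 between 3xTgAD and Polb+/- (adjusted p = 0.408). Gsk3b, the kinase that marks cyclin D1 for export and breakdown, differed by -0.23 ± 0.135 between 3xTgAD/Polb+/- and 3xTgAD (adjusted p = 0.601). None of these differences was called.

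**Figure D5:**
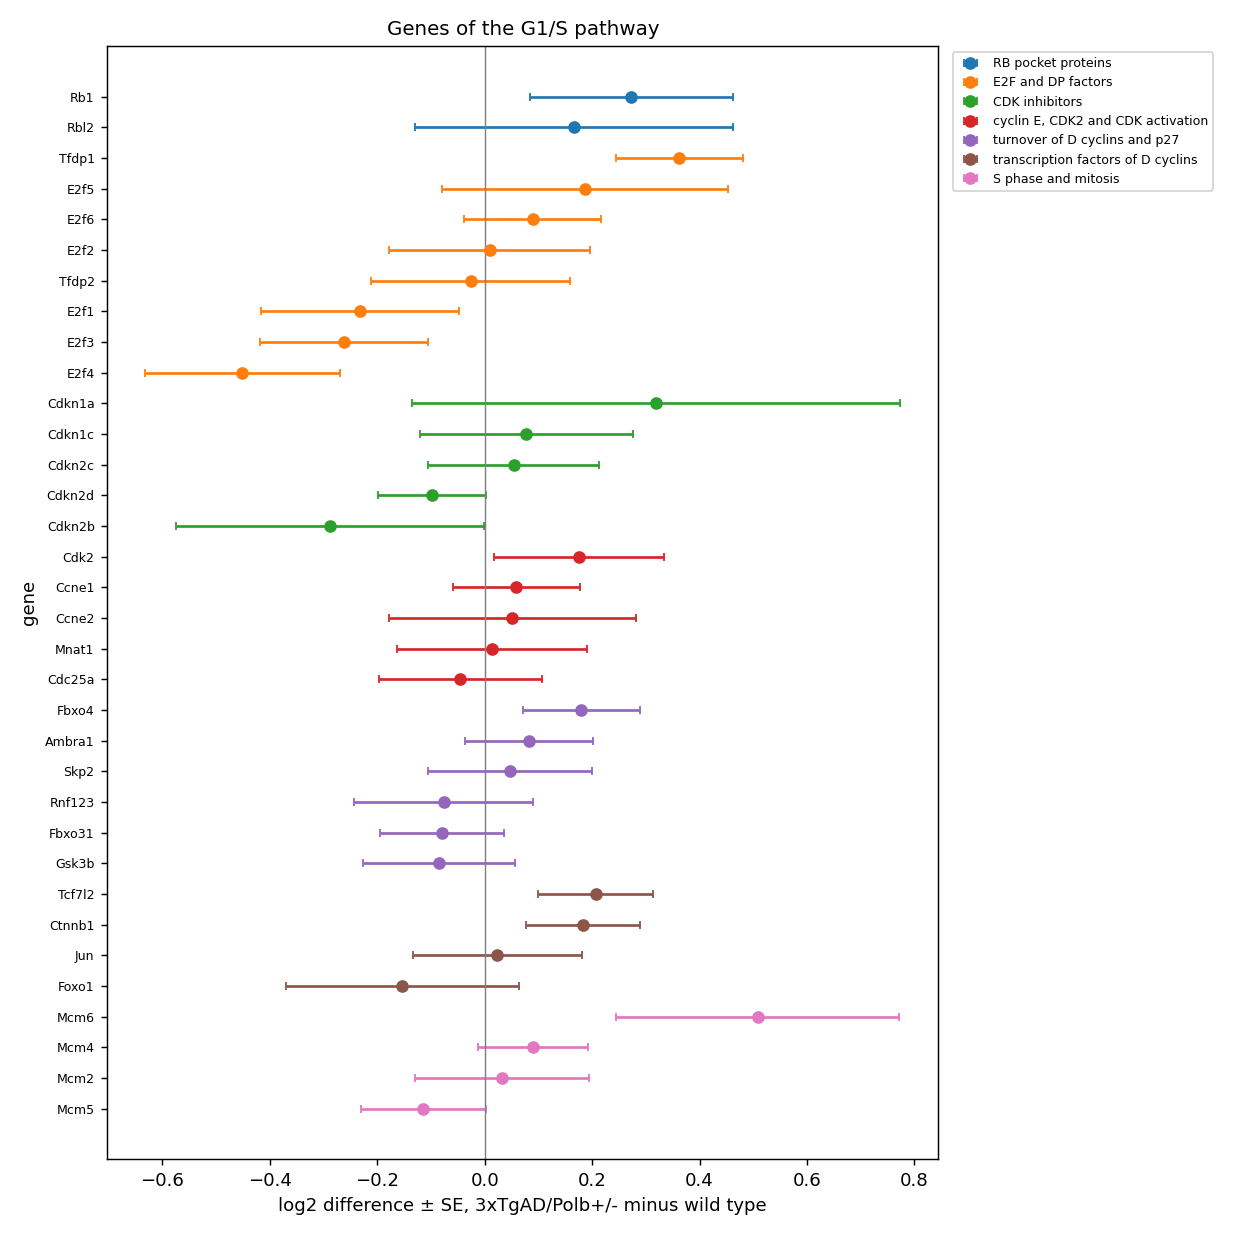
Log2 differences of 34 G1/S pathway genes between 3xTgAD/Polb+/- and wild type, by group, with bars of 1 SE. The values scatter on both sides of 0, and none passed the test over all genes, where 0.0181% of all genes did.

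The genes whose levels were most like those of Ccnd2 over the 19 arrays were ranked by Pearson r, a description that reuses the arrays on which Ccnd2 was chosen. Zswim4 (r 0.791), 1700016K19Rik (0.784), Prss22 (0.772), Slc4a1ap (0.727) and Tapbpl (0.723) were the highest, and Zfp334 (-0.794), Eif5 (-0.788) and Atp13a1 (-0.785) the lowest. Ccnd1 ranked 187 of 11071 (r 0.568). With the means of each genotype and spelling removed, r of Ccnd1 was -0.152. The genes highest on that measure were Scarb2 (0.886), Golm1 (0.877), ILMN_2767162 (0.837), Jmjd4 (0.821) and Cops7b (0.813). Without that step their r with Ccnd2 was -0.265, -0.435, 0.0872, 0.429 and 0.162 in the same order. The step removed 8 means, 1 of them from a single array. These genes are the extremes of 11071, and nothing is read from them.

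The 20 tested genes nearest to Ccnd2 on chromosome 6, 10 on each side, lay on both sides of 0. In 3xTgAD/Polb+/- against wild type 10 were higher and 10 lower, with a median difference of -0.010. Of these, 0 passed (limma), where 0.0181% of all genes did. The median over all genes was 0.020, and 2 of the 20 were past an unadjusted p of 0.05, where 13.2% of all genes were. Over all 7 comparisons 1 neighbour was called, Kcna5, a potassium channel subunit, which differed by -0.79 ± 0.125 between 3xTgAD and Polb+/- (adjusted p = 0.0109), where 0.37% of all genes were called, and it was chosen after its values were seen. In 3xTgAD/Polb+/- against wild type the 3 with the smallest p were Tspan9, a membrane tetraspanin, at -0.38 ± 0.175 (adjusted p = 0.364), Vwf, the von Willebrand factor, at 0.72 ± 0.341 (adjusted p = 0.372) and A2ml1 at -0.76 ± 0.394 (adjusted p = 0.411).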

How the data were processed

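Per the labels' protocols, RNA was extracted with TRIzol from prefrontal cortex and labelled with biotin. The authors' deposited file gives, per the file headers, an intensity for each probe and array beside its detection p-value; the lowest intensity was 30.4, and GenomeStudio 1.9.0 stands in the submitters' processing notes. A second deposited file holds a score, which equalled the z score of log10 intensity within an array to within 5e-10. Background correction and quantile normalisation used neqc in limma 3.58.1 (R 4.3.3, data.table in version 1.17.8) with the detection p-values and an offset of 16, giving log2 intensity. Probes with a detection p-value under 0.05 on at least 4 arrays were kept (14942 of 25697), and the brightest stood for each gene, which gave 11072 genes. A single limma fit held a mean for each genotype, with 15 degrees of freedom left and 4.423 from the prior, and was used for 7 contrasts, with Benjamini-Hochberg adjustment over all genes and two-sided tests. The fit was tested on simulated data.

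Members, gene lists and tests were chosen with earlier results of these data known. Named genes were all members, Polb, the extreme likeness genes, up to 3 genes past the threshold or the 2 with the smallest p in each sub-list of the pathway, the 3 neighbours with the smallest p, and up to 2 genes of a marker list; of these, the ones described are given. Replicate numbers were not taken to pair the arrays: of 25 same-numbered pairs in different genotypes, 7 correlated over 0.1 (-0.345 to 0.441). Alternatives concerned background, scaling, filter, probes, spelling, weights and arrays left out. The number of arrays limits precision.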

Additional observations from a re-analysis of the deposited data

Results flagged for a closer look

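Of 28 groups of arrays tested for a sample apart, 2 had one, and chance flags about 1 in 20 groups. The Ccnd2 level of 3xTgAD replicate 1 was 9.76, while the other 5 arrays of the genotype lay at 9.27 to 9.45. The dim Ccnd3 probe ILMN_1246473 stood at 6.35 on Polb+/- replicate 4, while the other 3 arrays lay at 5.48 to 5.60; that array is the only one of its genotype labelled "20 month".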

How the results depend on the processing

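The Ccnd2 difference of the cross from wild type was -0.89 with array weights, -0.86 within the "20- month" arrays and -0.61 within the "20 month" arrays. With 1 array left out it was -0.79 to -0.67, and it was below 0 under every alternative run. Ccnd2 was chosen by this difference on the same arrays, so its sign here is a description and tests nothing. Of Ccnd1, Ccnd3 and Cdkn1b, 0 were past the threshold, and Ccnd1 made it 1 within the "20- month" arrays and with array weights, in all 3 comparisons of the cross. Leaving out 1 array gave 0 to 1 against wild type and against Polb+/-, where 3xTgAD/Polb+/- replicate 3 was the one left out. With the spelling as a block and that array left out, a setting added after seeing the data, the count was 1 as well. In that setting 8.67% of all genes were called against wild type and 7.09% against Polb+/-. Ccnd1 with array weights differed by -0.94 from wild type (adjusted p = 0.00282; -1.34 to -0.15 over its alternatives, adjusted p from 0.00161 to 0.954), where 11.8% of genes were called. Of the 34 tested G1/S genes, 4 (Cdkn1a, E2f4, Rb1 and Tfdp1) passed within the "20- month" arrays against wild type, where 14.1% of all genes did, and 2 (Mcm6 and Tfdp1) against Polb+/-; with array weights 1 (Tfdp1) and 2 (Mcm6 and Tfdp1) did, and 1 (Mcm6) in 3xTgAD against Polb+/-, where 3.6% of all genes were called. Of all genes, 11.5% were called within the "20- month" arrays in the cross against Polb+/- and 5.91% against 3xTgAD, and 11.1% and 5.25% with array weights. With 1 array left out the counts were 0 to 1 against wild type and 0 to 1 against Polb+/-. The cause of these changes was not tested.

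The differences of Ccnd3 and Cdkn1b were near 0 and, with 1 exception, changed sign with the setting, none of them past the threshold. The exception was Ccnd3 in 3xTgAD against wild type (0.10), which stayed above 0. Its differences were 0.04 to 0.23 over alternatives and 0.03 to 0.18 with 1 array left out. For Ccnd3 in 3xTgAD/Polb+/- against wild type (0.00) they were -0.02 with the deposited scores and with 75th percentile centring, -0.05 with a spelling block, -0.11 within "20- month", -0.09 with striatal markers as a covariate, -0.14 with array weights and -0.17 to 0.11 with 1 array left out. For Cdkn1b (0.03) they were -0.06, -0.13, -0.12, -0.36 and -0.22 to 0.26 in the same order from the spelling block on. Against 3xTgAD, Ccnd3 (-0.09) was 0.01 with the mean of its probes and -0.26 to 0.01 with 1 array left out, and Cdkn1b (0.14) was -0.08 without both 3xTgAD arrays low in Polb, -0.22 with array weights and -0.10 to 0.37 with 1 left out. Against Polb+/-, Ccnd3 (0.08) was -0.05 with the spelling block, -0.04 within "20- month", -0.15 within "20 month", -0.21 with striatal markers, -0.03 with weights and -0.09 to 0.25 with 1 left out. Cdkn1b (0.18) was -0.03, -0.06, -0.02, -0.29, -0.15 and -0.06 to 0.41 in the same settings.

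In 3xTgAD against wild type, Ccnd1 (-0.15) was 0.13 within "20 month", and Cdkn1b (-0.11) was 0.08 with percentile centring, 0.11 without the arrays low in Polb and -0.25 to 0.05 with 1 left out. In Polb+/- against wild type, Ccnd1 (0.13) was -0.03 with the mean of its probes and -0.06 within "20- month". Ccnd3 (-0.08) was 0.00 with the spelling block, 0.17 within "20 month", 0.12 with striatal markers and -0.25 to 0.01 with 1 left out, and Cdkn1b (-0.15) was 0.04, 0.17 and -0.38 to 0.01 in the last 3 of these. In 3xTgAD against Polb+/-, Ccnd3 (0.17) was -0.11 within "20 month" and -0.08 with striatal markers, and Cdkn1b (0.04) was -0.17 with the spelling block, -0.12 within "20- month", -0.24 within "20 month", -0.37 with striatal markers and -0.09 to 0.26 with 1 left out. In the interaction, Ccnd3 (-0.02) was 0.04 with the mean of its probes and -0.19 to 0.16 with 1 left out, and Cdkn1b (0.29) was -0.09 with striatal markers and -0.00 with weights.

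The replicate numbers were not taken to pair the arrays, since 7 of 25 same-numbered pairs, not all, correlated over 0.1; as a hint from the data, 8 of 19 arrays correlated best with their own number. With the replicate number as a block, the Ccnd2 difference from wild type was -0.74 and Ccnd1 was -0.73 (adjusted p = 0.421), Ccnd3 was -0.04 and Cdkn1b -0.05 in 3xTgAD/Polb+/- against wild type, Cdkn1b was -0.03 against 3xTgAD, and no call changed.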
